A study of Mus musculus with 6 samples.

Results

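The antiviral effector genes that type I interferon induces were examined in F4/80+ cells taken from tumours in St2-/- and wild type mice. They were a list of 35 genes set by function, chosen with earlier results of these data known. A gene was measured where the array's annotation paired a probe set with its symbol alone. In this way 32 of the 35 were measured, among 19938 genes in all. Isg15, Phf11b and Ifi44 had no such probe set and are not analysed here. ST2 is the product of Il1rl1 and binds the alarm cytokine IL-33, while F4/80 marks the surface of macrophages in mice. The St2-/- group held 3 samples of F4/80+ cells from tumours implanted in mice that lack the receptor, and the wild type group held 3 from tumours implanted in mice that have it, with 1 array per sample. The deletion is a property of the host, and the labels do not say whether the tumour cells carry it. Neither do they give the tumour, the mouse strain or the age of the animals. Since they also leave unsaid whether each sample was a different mouse, the p-values speak of spread among samples that may be partly or wholly technical.

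Type I interferons bind a receptor on the cell surface, and its kinases activate transcription factors that bind interferon-stimulated response elements in the promoters of target genes. The proteins made in this way block viruses at entry, translation, replication and release, and macrophages and dendritic cells make many of them at a basal level. Many of the same genes also respond to interferon gamma.

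Values are the deposited RMA values, taken as log2, and differences are St2-/- minus wild type. Arrays of the same genotype correlated across genes at 0.996 to 0.998 (Pearson), and arrays of different genotypes at 0.986 to 0.988. Precision is limited by there being 3 arrays a group. The macrophage markers Csf1r and Cd68 averaged 12.11 ± 0.04 and 12.53 ± 0.02 in St2-/- (SD, n = 3), against 12.07 ± 0.02 and 12.57 ± 0.04 in wild type (SD, n = 3). Adgre1, the gene of F4/80, averaged 11.63 ± 0.04 in St2-/- and 11.32 ± 0.04 in wild type (SD, n = 3 each), a rise of 0.31 (limma adjusted p = 0.00631). Of the 16 measured macrophage markers 3 were called higher and 5 lower, and the 4 with the smallest p all fell: Mrc1, the mannose receptor (-1.64), Msr1, a scavenger receptor (-0.76), Mertk, a receptor for dying cells (-0.72), and Lyz2, lysozyme (-0.71). Il1rl1 had no probe set named for it alone, so the genotypes were not checked against it.

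Antiviral effectors were higher in the St2-/- cells across almost the whole list. Of the 32 measured, 30 (93.8%) were called higher, Samd9l was called lower, and Trim25 was not called (limma, Benjamini-Hochberg adjusted p under 0.05 over all genes). Over all 19938 genes 10.7% were called higher and 10% lower, and without the dimmest 40% of genes, which hold none of the 32, the shares were 17.2% and 13.2%. In bulk samples such as these, a change in the number of cells of a type and a change in RNA per cell cannot be told apart. The median difference was 0.59 for the 32 genes, a 1.5-fold rise, and -0.02 over all genes. Every St2-/- array lay above every wild type array for 30 of the 32 (93.8%), as it did for 18.1% of all genes. Rises of at least 2-fold were found for 5 of them (15.6%), against 0.657% of all genes, and those 5 were Oas3, Usp18, Mx1, Rsad2 and Xaf1. A further 12 rose by 1.5-fold to 2-fold and 13 by less. With each array centred on its own median, the calls over all genes split into 3685 higher and 1294 lower, against 2143 and 1998 on the values as deposited, and the 32 genes kept the same calls.

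**Figure D1:**
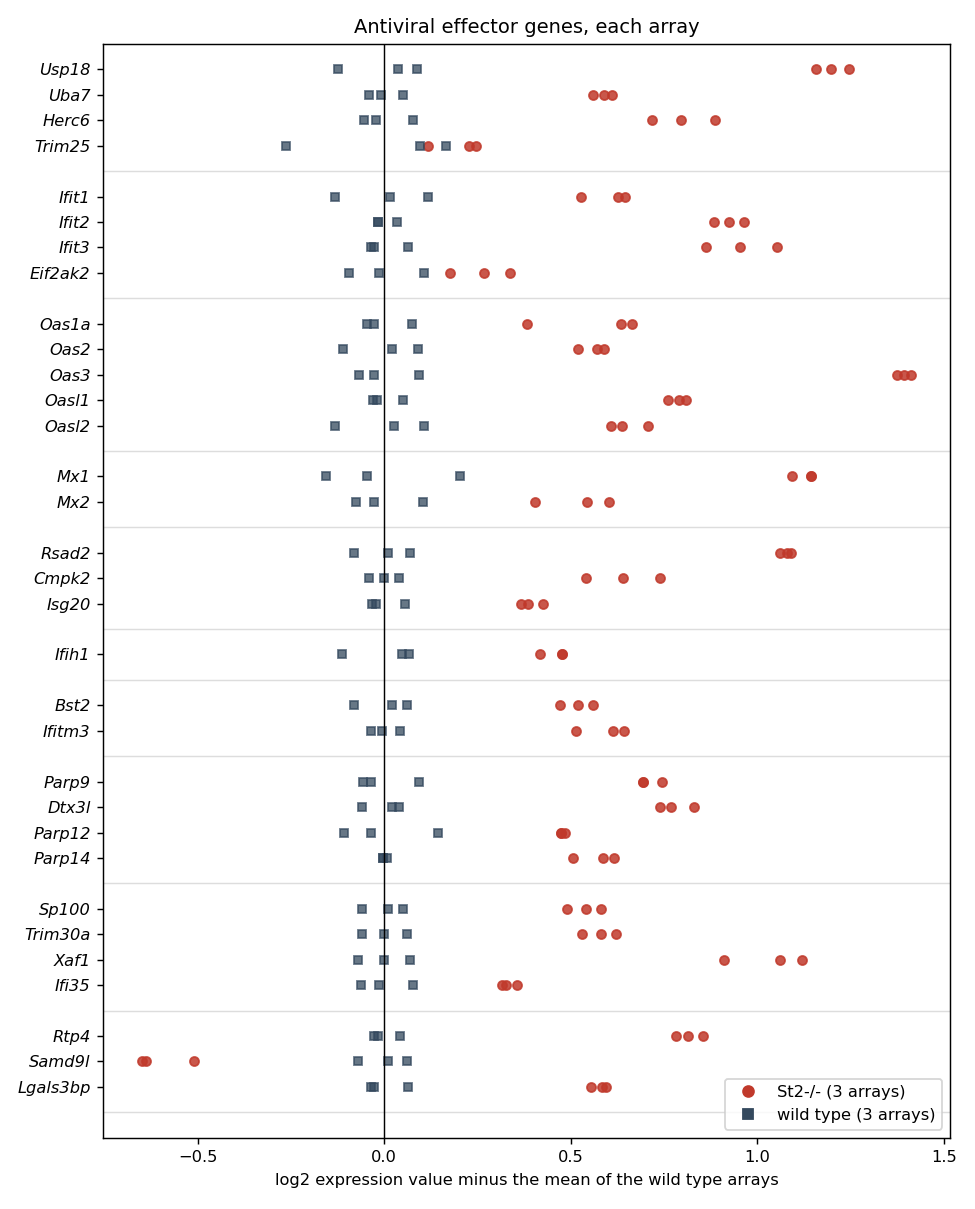
Each row is a gene and each point an array, plotted as its log2 expression value minus the mean of the 3 wild type arrays, with red circles for St2-/- and dark squares for wild type. Grey lines separate groups of related function. The St2-/- points lie right of all wild type points for 30 of the 32 genes and left of them for Samd9l, and for Trim25 the groups overlap.

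**Figure D2:**
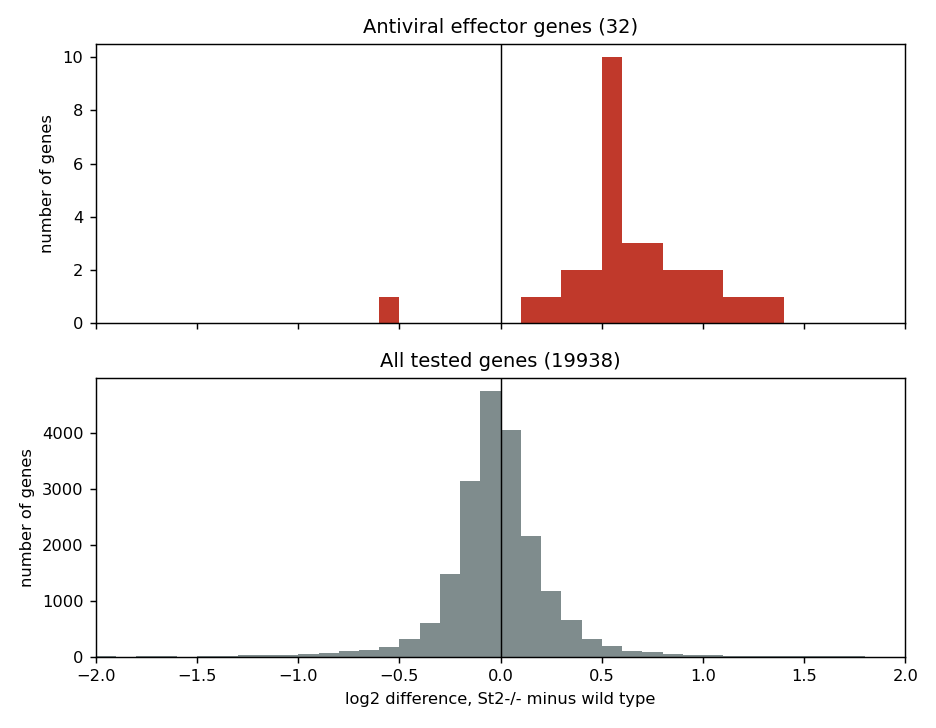
Histograms of the log2 difference, St2-/- minus wild type, for the 32 antiviral effector genes (top) and all 19938 tested genes (bottom), in bins of 0.1 on the log2 scale and with 41 genes beyond ±2 not drawn. Differences within ±0.25 made up 78.6% of all genes and 1 of the 32 effectors.

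Within a genotype the arrays lay close together for these genes. The mean over the 32 genes was 9.45, 9.43 and 9.48 on the St2-/- arrays, and 8.83, 8.83 and 8.76 on the wild type arrays. The highest-minus-lowest range within a group had a median of 0.09 in St2-/- and 0.13 in wild type for these genes, against 0.15 in St2-/- and 0.17 in wild type over all genes. The ranges over all genes include the dimmest 40%, which hold none of the 32, and were not taken without them. The widest ranges were 0.28 for Oas1a in St2-/- and 0.43 for Trim25 in wild type. St2-/- replicate 3 was alone the highest of its group for 16 of the 32 genes, and wild type replicate 3 alone the lowest of its group for 16.

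**Figure D3:**
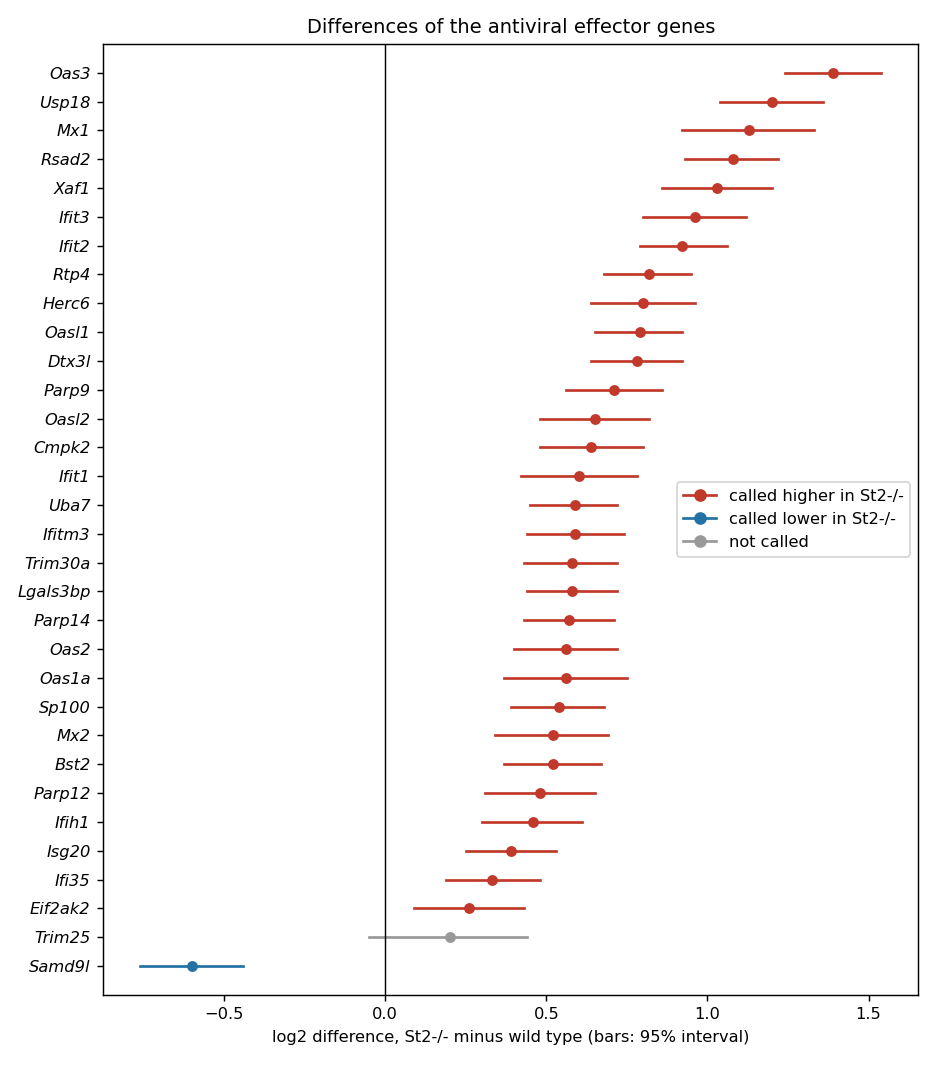
Log2 difference, St2-/- minus wild type, of each of the 32 genes, ordered by size, with the 95% interval from the limma fit as a bar. Oas3 is at the top with 1.39, and the interval of Trim25, from -0.05 to 0.44, is the only one that includes 0.

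The oligoadenylate synthetases make short oligoadenylates when they bind foreign RNA, which switch on the nuclease RNase L, and all 5 listed genes of the family rose. Oas3, the family member that senses long RNA, had 8.29, 8.31 and 8.33 on the St2-/- arrays, against 7.01, 6.89 and 6.85 on the wild type arrays. The groups stood far apart for their spread, a 2.63-fold rise (log2 difference 1.39 ± 0.07 SE, limma adjusted p = 7.71e-07). Oas1a had 8.47, 8.22 and 8.50 in St2-/-, against 7.79, 7.91 and 7.81 in wild type, with St2-/- replicate 2 nearest to the other group. Oas2 averaged 9.45 ± 0.04 in St2-/- and 8.89 ± 0.10 in wild type (SD, n = 3 each). Both Oas1a and Oas2 rose by 0.56, and the groups overlapped for neither. Oasl1 and Oasl2, which belong to the family by sequence, rose by 0.79 and 0.65. In mice Oasl1 is known to restrain the translation of IRF7. The Oas1 genes stand in a cluster of near-identical copies, and this platform's probes may not tell them apart, so the value of Oas1a is uncertain.

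Among the Ifit proteins, Ifit1 binds foreign RNA that lacks the host's cap methylation and stops its translation. Ifit2 had 9.89, 9.81 and 9.85 in St2-/-, against 8.91, 8.96 and 8.91 in wild type, a 1.9-fold rise (limma adjusted p = 6.24e-06). Ifit3 had 10.04, 9.95 and 10.14 in St2-/-, against 9.05, 9.15 and 9.06 in wild type, a 1.94-fold rise. Ifit1, the cap-binding member, had 9.63, 9.51 and 9.61 in St2-/-, against 9.10, 9.0 and 8.85 in wild type. Its rise of 0.60 was the smallest of the 3 Ifit genes, and for none of them did the groups overlap. Ifit3 shares sequence with the copy gene Ifit3b, so its value is uncertain.

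Eif2ak2 encodes PKR, the kinase that halts translation when it meets foreign double-stranded RNA, and its rise was the smallest among the called genes. It had 8.86, 8.70 and 8.79 in St2-/-, against 8.51, 8.63 and 8.43 in wild type. The lowest St2-/- array was close to the highest wild type array, and the difference of 0.26 ± 0.08 (SE) had a limma adjusted p of 0.0374. That p was 0.124 and 0.104 without St2-/- replicate 1 or 3, 0.0917 and 0.107 without wild type replicate 1 or 3, 0.122 after cyclic loess and 0.0713 with the replicate number as a block.

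The conjugation of the ubiquitin-like protein ISG15 to other proteins needs an activating enzyme, ligases and a protease that reverses it. Usp18, the protease, which also damps signalling from the type I interferon receptor, had 9.37, 9.28 and 9.32 in St2-/-, against 8.0, 8.21 and 8.16 in wild type. It rose 2.3-fold (log2 difference 1.20 ± 0.07 SE, limma adjusted p = 3.69e-06), the second of the list after Oas3. Uba7, the activating enzyme, averaged 8.18 ± 0.03 in St2-/- and 7.59 ± 0.05 in wild type (SD, n = 3 each), a rise of 0.59. Herc6, the ligase for ISG15 in mice, rose by 0.80, and Ube2l6, the conjugating enzyme, which is not on the list and was named after its value was seen, rose by 0.66. Trim25, a ubiquitin ligase that acts with the sensor RIG-I, was the exception. It had 8.53, 8.66 and 8.64 in St2-/-, against 8.51, 8.58 and 8.15 in wild type. The groups overlapped, with wild type replicate 3 well below the other five arrays, and the difference was 0.20 ± 0.11 (SE), with a 95% interval of -0.05 to 0.44 and a limma adjusted p of 0.242. Without wild type replicate 3 the difference was 0.06.

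The Mx proteins are dynamin-like GTPases that trap viral components. Mx1 had 8.17, 8.22 and 8.22 in St2-/-, against 7.28, 7.03 and 6.92 in wild type, a 2.18-fold rise (log2 difference 1.13 ± 0.09 SE, limma adjusted p = 2.25e-05). Mx2 had 7.69, 7.83 and 7.89 in St2-/-, against 7.21, 7.39 and 7.26 in wild type, a 1.43-fold rise. Many inbred mouse strains carry a defective Mx1, and since the strain is not given, the values speak only of RNA.

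Enzymes that act on nucleotides and RNA rose as well. Rsad2, or viperin, which makes a nucleotide analogue that stops viral RNA synthesis, had 10.46, 10.48 and 10.49 in St2-/-, against 9.32, 9.47 and 9.41 in wild type. Its arrays were nearly level within St2-/-, and it rose 2.11-fold (limma adjusted p = 3.38e-06). Cmpk2, a mitochondrial nucleotide kinase whose gene neighbours Rsad2, averaged 8.17 ± 0.10 in St2-/- and 7.53 ± 0.04 in wild type (SD, n = 3 each), a 1.56-fold rise. Isg20, an exonuclease that degrades RNA, rose 1.31-fold. Ifih1 encodes MDA5, the cytosolic sensor of long double-stranded RNA. It had 9.73, 9.79 and 9.79 in St2-/-, against 9.38, 9.36 and 9.20 in wild type, a rise of 0.46 with no overlap between the groups.

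Both listed restriction factors of membranes rose. Bst2, or tetherin, which holds budding virions at the cell surface, had 11.41, 11.36 and 11.45 in St2-/-, against 10.95, 10.91 and 10.81 in wild type (difference 0.52, limma adjusted p = 0.000442). Ifitm3, which blocks fusion of viruses in endosomes, had 12.10, 11.97 and 12.07 in St2-/-, against 11.42, 11.50 and 11.45 in wild type (difference 0.59, limma adjusted p = 0.000166). Ifitm genes share sequence, so this value is uncertain. The relatives Ifitm1, Ifitm2 and Ifitm6, named after their values were seen, had differences of 0.07, 0.03 and 0.03 and were not called. Ifitm6 was among the dimmest 40% of genes, averaging 4.26 in St2-/- and 4.23 in wild type. Bst2 is also a marker of plasmacytoid dendritic cells. Of 9 measured other markers of these cells 1 was called higher, Blnk, which B cells share, as were 10.7% of all genes. Over those 9 the mean was 5.68 to 5.73 on the St2-/- arrays and 5.66 to 5.72 on the wild type arrays, 6 of the 9 were among the dimmest 40% of genes, and Siglech, a defining marker, averaged 4.87 ± 0.10 in St2-/- and 4.87 ± 0.05 in wild type (SD, n = 3 each).

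Parp9, Parp12 and Parp14 belong to the family that transfers ADP-ribose to proteins, and Dtx3l is the ubiquitin ligase that pairs with Parp9. Parp9 had 8.82, 8.82 and 8.87 in St2-/-, against 8.09, 8.22 and 8.07 in wild type, a rise of 0.71. Dtx3l had 9.81, 9.87 and 9.78 in St2-/-, against 9.06, 8.98 and 9.08 in wild type, a rise of 0.78. The products of both genes form a complex, and for neither gene did the groups overlap. Parp14, known also as a cofactor of STAT6 in responses to IL-4, rose by 0.57, and Parp12 by 0.48.

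The nuclear and regulatory proteins of the list rose too, over a wide range. Xaf1, which opposes the apoptosis inhibitor XIAP, had 8.58, 8.73 and 8.79 in St2-/-, against 7.67, 7.74 and 7.60 in wild type, a 2.04-fold rise (limma adjusted p = 1.24e-05). Sp100, a component of nuclear bodies, rose by 0.54. Trim30a, a ligase that restrains Toll-like receptor signalling in mice, rose by 0.58, and its value is uncertain because it has close relatives such as Trim30d. Ifi35, a partner of Nmi, rose by 0.33, the second smallest rise called.

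Of the remaining effectors, Rtp4 and Lgals3bp rose and Samd9l fell. Rtp4, a chaperone for membrane receptors, averaged 9.51 ± 0.04 in St2-/- and 8.70 ± 0.04 in wild type (SD, n = 3 each), a rise of 0.82. Lgals3bp, a secreted glycoprotein that binds galectins, had 12.64, 12.60 and 12.63 in St2-/-, against 12.11, 12.02 and 12.01 in wild type, a rise of 0.58. Samd9l, a cytoplasmic protein that restrains poxviruses and cell growth, had 7.89, 7.90 and 8.03 in St2-/-, against 8.55, 8.60 and 8.47 in wild type. Every St2-/- array was below every wild type array, a fall of 1.52-fold (log2 difference -0.60 ± 0.07 SE, limma adjusted p = 0.000226). Its difference stayed between -0.68 and -0.51 under each of 16 other settings, which left out the test against a minimum fold.

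Promoters were read for what the letters hold, since the genes moved together. RefSeq promoters (GRCm38.p6, 250 bases before to 50 after an annotated start) were matched by symbol for 28 of the 35 genes, 25 of them measured. No promoter was matched for Usp18, Mx1, Mx2, Oas2, Parp9, Parp14 and Rtp4, which are thus left out below. Their rises ran from 0.52 for Mx2 to 1.20 for Usp18. The core of the interferon-stimulated response element was searched on both strands as a pair of GAAA copies with any 2 bases between them. It was found for 10 of the 25 measured genes (40%) and for 3.89% of all 15614 tested genes with a promoter. The core of the gamma-activated site, TTCNNNGAA, which reads alike on both strands, was found for 7 of the 25 (28%) and 8.99% of those 15614 genes, and in Bst2 and Ifitm3 it overlapped the other motif. Differences of the 10 genes with the first motif ran from 0.26 to 1.39 (median 0.58), and those of the 15 without it from -0.60 to 1.03 (median 0.59). Outside the list, 18.4% of 597 tested genes with the first motif and 10.5% of 14992 without it were called higher, and 8.71% and 9.68% lower. For the gamma-activated site outside the list, 10.7% of 1396 genes with it and 10.8% of 14193 without it were called higher. A match describes the letters only, and the lack of one says only that they are not in this window.

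The 250 bases before the start are shown for Oas3, which rose most, for Ifit1, which holds 2 copies, and for Samd9l, which fell. They are written 5′ to 3′ on the strand of the gene, in lower case with matches to the response element core in capitals. A match on the opposite strand reads TTTC, 2 bases, TTTC.
Oas3, chr5:120777660-120777909, minus strand: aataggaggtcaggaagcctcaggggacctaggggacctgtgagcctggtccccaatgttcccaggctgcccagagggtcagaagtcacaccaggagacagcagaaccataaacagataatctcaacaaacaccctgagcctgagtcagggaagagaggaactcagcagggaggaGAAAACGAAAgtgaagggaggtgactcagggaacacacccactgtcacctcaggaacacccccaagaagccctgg
Ifit1, chr19:34640639-34640888, plus strand: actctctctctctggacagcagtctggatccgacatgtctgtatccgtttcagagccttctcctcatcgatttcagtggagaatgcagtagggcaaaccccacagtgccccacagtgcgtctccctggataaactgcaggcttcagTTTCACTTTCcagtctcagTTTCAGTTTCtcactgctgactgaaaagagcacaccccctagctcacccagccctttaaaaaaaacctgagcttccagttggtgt
Samd9l, chr6:3399572-3399821, minus strand: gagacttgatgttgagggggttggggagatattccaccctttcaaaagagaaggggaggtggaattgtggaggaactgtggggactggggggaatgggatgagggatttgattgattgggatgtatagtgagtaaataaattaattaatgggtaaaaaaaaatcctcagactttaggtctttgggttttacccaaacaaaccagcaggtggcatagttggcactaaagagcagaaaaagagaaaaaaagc
Oas3 held 1 match that starts 75 bases before the start site, and Ifit1 held matches on the opposite strand at 104 and 85 bases. Samd9l held none in its window.

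For 8 further genes that rose, the 30 bases around a match are shown in the same way, so that the spacing and the flanking letters can be compared.
Rsad2, chr12:26456553-26456582, minus strand: ctggtccaacTTTCATTTTCagaaaacaga
Bst2, chr8:71537580-71537609, minus strand: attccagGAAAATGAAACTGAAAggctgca
Ifit3, chr19:34583363-34583392, plus strand: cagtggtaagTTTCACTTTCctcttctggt
Oas1a, chr5:120907523-120907552, minus strand: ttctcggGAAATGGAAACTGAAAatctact
Trim30a, chr7:104465210-104465239, minus strand: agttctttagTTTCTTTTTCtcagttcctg
Ifitm3, chr7:141010706-141010735, minus strand: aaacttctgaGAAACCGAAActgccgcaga
Ifih1, chr2:62646206-62646235, minus strand: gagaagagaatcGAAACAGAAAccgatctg
Eif2ak2, chr17:78882535-78882564, minus strand: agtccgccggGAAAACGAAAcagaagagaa
Bst2 and Oas1a each held 2 overlapping copies. Matches of the other genes lay on either side of the start site, from 156 bases before it in Ifit3 to 33 bases after it in Ifih1. Ifit3 and Ifitm3 each held another match that is not shown, 122 bases before the start site and 3 bases after it. Trim30a held another in a different promoter, 3 bases after that start. The first bases of the Ifitm3 window are the end of its other match and stand in lower case.

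**Figure D4:**
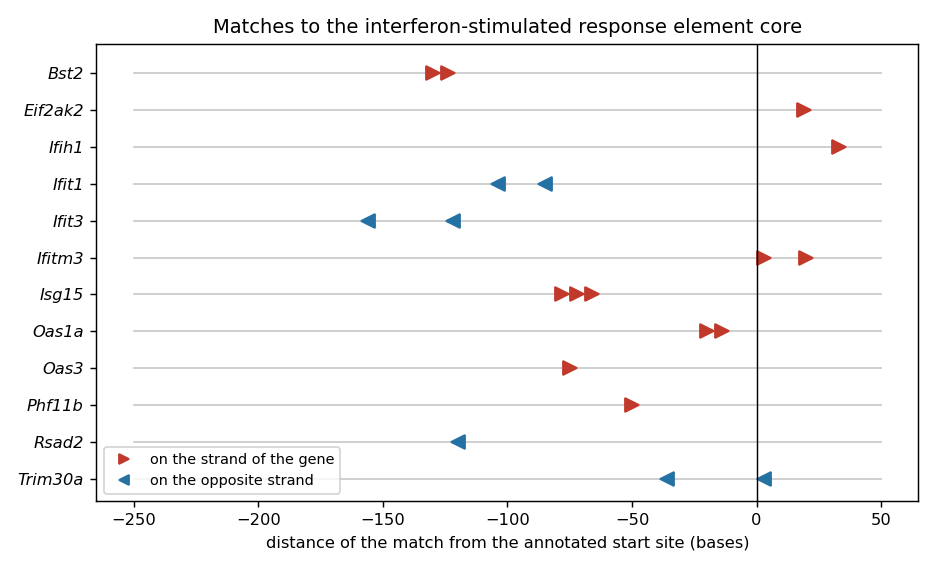
Positions of matches to the response element core in RefSeq promoters of the 12 listed genes that hold one, in bases from the annotated start site, with red triangles for the strand of the gene and blue triangles for the opposite strand. Isg15 and Phf11b, which were not measured, are drawn too, and 15 of the 20 matches lie before the start site.

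Genes that carry the interferon signal moved unevenly along the pathway. Of 16 measured interferon ligand genes, 1 was called higher, 1 lower and 14 not called (median -0.12), and 12 of the 16 were among the dimmest 40% of genes. Over all genes 10.7% were called higher and 10% lower. Ifng, the gene of interferon gamma, averaged 4.99 ± 0.11 in St2-/- and 4.45 ± 0.16 in wild type (SD, n = 3 each), a rise of 0.54. Ifnab, a type I interferon gene, averaged 4.02 ± 0.22 in St2-/- and 4.5 ± 0.20 in wild type (SD, n = 3 each). Its difference was -0.48, the 1 called lower (limma adjusted p = 0.0232), although the groups overlapped. Ifng and Ifnab were both among the dimmest 40% of genes. Ifna5, of the interferon alpha family, had a difference of -0.29 and was not called. Ifnb1, the gene of interferon beta, averaged 7.74 ± 0.03 in St2-/- and 7.51 ± 0.13 in wild type (SD, n = 3 each), a difference of 0.23 that was not called (limma adjusted p = 0.0645). The 9 receptor and kinase genes had a median of 0.05, with 2 called higher and 1 lower. Ifnar2, a chain of the type I receptor, rose by 0.59 and Ifnlr1, a chain of the lambda receptor, by 0.81, and Il10rb, the partner of Ifnlr1, fell by 0.24 on the log2 scale.

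Most transcription factors of the pathway were higher in the St2-/- cells. Of 8 measured STAT and IRF genes 7 were called higher and 1 was not (median 0.58), Irf3, named after its value was seen. Among all genes the share called higher was 10.7%, and 10% were lower. Irf7, the factor that amplifies type I interferon production, averaged 11.10 ± 0.06 in St2-/- and 9.98 ± 0.07 in wild type (SD, n = 3 each), a 2.18-fold rise. Stat2 rose by 0.70, Irf8 by 0.72 and Irf1 by 0.61. Inhibitors of the pathway had a median of 0.29, and 6 of 8 were called higher, the phosphatase gene Ptpn2 among them with 0.39. Nucleic acid sensors and adaptors had a median of 0.37, and of 15 measured 11 were called higher, 1 lower and 3 neither. The DNA sensor gene Tlr9 rose by 1.11, the RIG-I-like receptor gene Dhx58 by 0.84 and Zbp1, a sensor of Z-form nucleic acid, by 0.78. Tlr8, named after its value was seen, was the 1 called lower, with a difference of -0.23.

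A longer list of interferon-induced antiviral genes had a median of 0.40, with 35 of 55 called higher and 2 lower. The shares of all genes called higher and lower were 10.7% and 10%. Ms4a4c rose by 1.75, Ifi213 by 1.60, Phf11a by 1.24 and Ifi27l2a by 1.09. The 2 called lower, named after their values were seen, were Apobec3, a cytidine deaminase that restricts retroviruses (-0.97), and Ifi27 (-0.41). Apobec3 had 8.02, 8.06 and 8.11 in St2-/-, against 8.93, 9.27 and 8.89 in wild type. Samd9l was thus not the only antiviral gene to run against the rest. Genes that interferon gamma favours were all called higher, 12 of 12 measured, with a median of 0.96 against 0.59 for the effectors. They included Gbp4 (1.78), Nos2 (1.38), Cd274 (1.13) and Gbp2b (3.60), whose close relatives make its value uncertain. The difference between these medians was not tested.

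**Figure D5:**
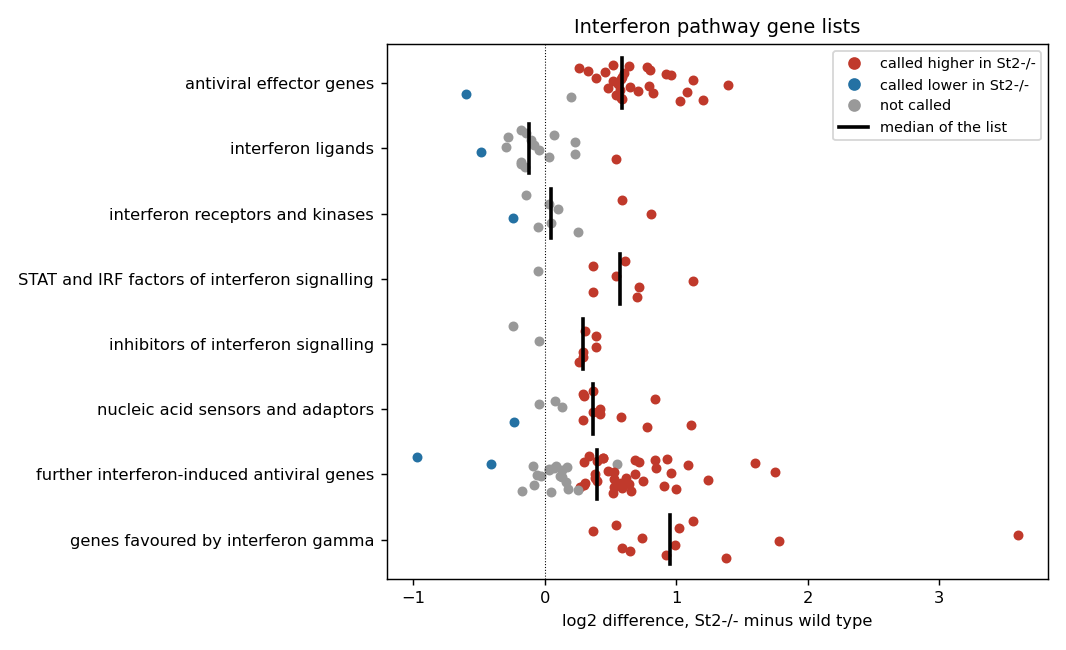
Each point is a gene, placed by its log2 difference, St2-/- minus wild type, in the list named at the left, with black bars for list medians and colours for the limma call. Medians lie at 0.59 for the effectors, -0.12 for interferon ligands, 0.05 for receptors and kinases, and 0.96 for genes favoured by interferon gamma.

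Markers of some other cells moved with genotype beside the effectors. For comparison, 10.7% of all genes were called higher and 10% lower. Of 11 T cell markers 7 were higher and 1 lower, with a list mean of 6.0 on each St2-/- array and of 5.22 to 5.34 on the wild type arrays. Of 11 NK cell markers 6 were higher, with 4.68 to 4.76 in St2-/- and 3.91 to 3.99 in wild type, and of 12 conventional dendritic cell markers 4 were higher and 3 lower, with 6.50 to 6.58 in St2-/- and 5.89 to 6.02 in wild type. The median difference of the dendritic cell markers was -0.02, with 3 called lower and 5 not called. The 4 called higher were Xcr1 (3.37), Clec9a (1.88), Itgax (1.80) and Cadm1 (1.21). Of 10 fibroblast markers 8 were lower and 1 higher, with 6.84 to 6.93 in St2-/- and 8.27 to 8.32 in wild type, and of 10 monocyte markers 6 were lower and 3 higher. The macrophage markers had a list mean of 11.26 to 11.31 in St2-/- and 11.46 to 11.49 in wild type. Endothelial markers had 6 of 9 lower and 2 higher, neutrophil markers 5 of 11 lower and 1 higher, and B cell markers 3 of 6 higher. Erythroid and platelet markers had 3 of 4 lower, with 5.95 to 5.98 in St2-/- and 6.81 to 6.87 in wild type, and epithelial and tumour markers had 1 of 10 lower and the others not called. Among the dimmest 40% of genes were 3 of 11 T cell, 8 of 11 NK cell and 5 of 6 B cell markers. So were 6 of 11 neutrophil markers and 6 of 10 epithelial and tumour markers. For conventional dendritic cell, endothelial and monocyte markers the counts were 4 of 12, 3 of 9 and 2 of 10. The part of these markers in the rise of the effectors was not tested.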

How the data were processed

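RNA of F4/80+ cells was hybridised to Affymetrix Gene 1.0 ST arrays, per the labels' protocols. The authors deposited RMA output, per the submitters' processing notes, and it was read as log2 because RMA returns that scale. Its version and log base were not given in the sources. RMA forces arrays onto a shared distribution, which hides any change common to most genes.

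The 21789 of 35556 probe sets paired with 1 symbol were kept, and each of 19938 genes was read from its brightest one (highest mean of 6 arrays). Each of the 32 measured effectors had 1 such probe set. Genotypes were compared with limma (version 3.58.1, under R 4.3.3) by lmFit and eBayes, two-sided, with Benjamini-Hochberg adjustment across the genes. The effectors and all lists were chosen with earlier results of these data known. All effectors are named, and of other lists only genes among the 4 with the smallest p, beside Adgre1, Csf1r, Cd68 and Il1rl1 as checks of the samples. Siglech and genes said to be named after their values were seen are exceptions. Lists are described by counts and medians and were not tested.

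Tested on simulated data of 19938 genes with 3 against 3 arrays, recovery was 11.8% for log2 changes of 0.25, 93.2% for 0.5 and 100% for 1. Of its calls 5.57% were unchanged genes. Far fewer genes were changed in the simulation than were called in the data, so its recovery may not hold for the data. Promoters came from RefSeq (GRCm38.p6). Alternatives covered scaling, variance prior, array weights, rows tested, probe sets of a gene, dim genes, the replicate block, each array left out, a plain two-sample test and a minimum fold.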

Additional observations from a re-analysis of the deposited data

Results flagged for a closer look

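Outside the comparison of genes, 3 probe sets that the platform annotation pairs with several symbols, a listed effector among them, were also higher in the St2-/- cells in a fit over all rows of the table. They carry no gene name of their own here. A probe set paired with 2 symbols had 9.24, 9.06 and 9.16 in St2-/-, against 8.54, 8.47 and 8.52 in wild type, a log2 difference of 0.64 (limma adjusted p = 0.00205). Another paired with 2 symbols had 8.74, 8.65 and 8.72 in St2-/-, against 8.12, 8.23 and 8.26 in wild type, a difference of 0.50 (limma adjusted p = 0.00478). The one paired with 5 symbols had 9.51, 9.52 and 9.51 in St2-/-, against 9.24, 9.13 and 9.17 in wild type, a difference of 0.33 (limma adjusted p = 0.0135). In all of them the groups did not overlap. Every St2-/- array lay above every wild type array for 18.1% of all genes, and 2248 of the 35556 rows were called higher in that fit. No other probe set paired with several symbols had a listed effector among them.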

How the results depend on the processing

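Under 17 other settings 0 of the 32 effectors changed direction. Apart from the test against a minimum fold, 29 or 30 stayed called higher and Samd9l stayed called lower, and Eif2ak2 was the effector that lost its call, in 8 of 16 settings (limma adjusted p from 0.00612 to 0.124 over them). In the limma test against a minimum fold of 1.5, 7 effectors were called higher (Oas3, Usp18, Rsad2, Mx1, Xaf1, Ifit2 and Ifit3) and 0 lower, and over all genes 153 were higher and 208 lower. The median difference of the effectors was 0.68 with arrays centred on their medians and 0.50 after cyclic loess, while the median over all genes was 0.07 and 0.00. It lay between 0.58 and 0.63 when each array was left out. Over all genes the centred arrays gave 3685 higher and 1294 lower calls, and the plain two-sample test 1222 lower, and leaving out each array gave 1466 to 1894 higher and 1421 to 1957 lower. With the replicate number as a block the calls were 1807 higher and 1764 lower over all genes, and 29 effectors higher. Deviations of same-numbered arrays correlated at 0.012, -0.012 and -0.048, and those of unlike-numbered arrays at -0.057 to 0.072. With 3 arrays a group this cannot settle whether samples were paired or processed together. The labels give only a replicate number. The cause of these changes was not tested. Arrays in groups of 3 give few degrees of freedom. Differences near 0.25 were seldom recovered in a simulation that changed far fewer genes than were called here.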

Other observations

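Close relatives of the effectors, named here after their values were seen, were read from probe sets of their own. In the Oas1 cluster, Oas1c (log2 difference 0.69) and Oas1b (0.38) were called higher in the St2-/- cells. Oas1d (-0.06), Oas1e (0.12), Oas1f (-0.03) and Oas1h (0.13) were not called (limma, adjusted p under 0.05 over all genes). These uncalled copies were all among the dimmest 40% of genes, averaging from 3.30 (Oas1h) to 4.56 (Oas1f) in St2-/-. Ifit3b, the copy of Ifit3, was higher by 0.85, and Trim30d, a relative of Trim30a, by 1.0. Phf11d, a relative of Phf11b, which was not measured, was higher by 0.75, and Phf11c by 0.40. Ifit1bl2 (0.17), Ifi44l (-0.09) and Trim34a (0.25) were not called. Ifit1bl2 was also among the dimmest 40% of genes, averaging 3.81 in St2-/- and 3.64 in wild type.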
